A study of Mus musculus with 34 samples.

Results

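Fabp7, Ptprz1 and Pax6, genes known from neural stem cells, and Notch1, Dll1, Hes1 and Hes5, genes of the Notch pathway, were followed through 10 groups of mouse cells on Affymetrix expression arrays. The 7 genes were chosen by name, and a probe set was taken as theirs where the probe annotation table gives it 1 gene symbol and that symbol is theirs. This rule found all 7 genes, with 12 probe sets, among 8251 genes and 10833 probe sets with 1 symbol. Fabp7, Pax6 and Hes1 have 1 probe set each, Notch1, Dll1 and Hes5 have 2 each, and Ptprz1 has 3. For each gene the main values come from the probe set with the highest mean signal, and the other probe sets are given beside it.

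The study set cells of the early embryo and germ line, and the lines grown from them, against somatic cells, on 32 arrays whose labels call the replicates biological. The groups called pluripotent here are the inner cell mass of E3.5 blastocysts (ICM, 3 arrays, isolated by immunosurgery, mixed sex, from crosses that carry C57Bl/6 with C3H and, on some arrays, CD1), embryonic stem cells (ESC, 2 arrays, male, passage 9 to 14, in LIF and serum), embryonic germ cells (EGC, 3 arrays, male, passage 19, in LIF and serum, from E12.5 germ cells), and primordial germ cells (PGC) at E11.5 (4 arrays, mixed sex) and at E13.5 (3 female and 3 male arrays). The somatic groups are the gonad and mesonephros soma of E11.5 (SGM, 4 arrays, mixed sex), embryonic fibroblasts of E13.5 (MEF, 6 arrays, mixed sex, passage 2, in serum), neural stem or precursor cells (NSC, 2 arrays, mixed sex) and blood stem or precursor cells (HSC, 2 arrays, male). Every group apart from ICM is C57Bl/6. PGC were sorted as positive for an Oct4 reporter with GFP, and SGM are the cells negative for it, so SGM is a mixture of all other cells of that tissue. NSC were neurospheres from the sub-ventricular zone of 8-week animals, grown for 1 passage in EGF, and a neurosphere can hold precursors beside more mature cells. HSC were sorted from 8-week bone marrow as Sca-1+, c-Kit+, CD34-, lineage-negative side population cells. The labels do not say how many lines the ESC and EGC arrays stand for, or how many animals were pooled.

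Notch is a receptor that a ligand on a neighbouring cell activates. The receptor is then cut, its inner part enters the nucleus, and with the DNA-binding protein RBPJ it turns on targets such as Hes1 and Hes5, repressors that hold back neuronal differentiation. In the neural stem cells of the brain, Dll1 is a ligand, Notch1 a receptor, Hes1 and Hes5 the best known targets. Fabp7 (brain lipid-binding protein) carries fatty acids and marks radial glia, Ptprz1 is a receptor tyrosine phosphatase of radial glia and glial precursors, and Pax6 is a transcription factor of neural progenitors and the eye.

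The sequence before the start of transcription was read for the binding core of RBPJ, since Notch targets and neural genes stand side by side here. RefSeq windows of GRCm38.p6, 250 bases each and ending just before an annotated start, were held for Fabp7, Ptprz1, Notch1 and Hes5 (1 window each) and for Pax6 and Dll1 (2 each). The core TGGGAA, searched on both strands, stands in 21.6% of all 32851 windows of the table. Among the 6 genes it stood in 2, at 2 places in Hes5 and 1 in Fabp7. Of all 27025 genes with a window, 24.1% had it in at least 1. Both Hes5 matches also had the longer form GTGGGAA, which overlaps the core and stands in 5.42% of all windows. The stretches of 30 bases that hold these matches follow, all on the plus strand, with the core or its reverse complement in capitals.
Hes5, upstream match: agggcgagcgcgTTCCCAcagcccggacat
Hes5, match nearer the start: ggccgccgagtgTGGGAAcggccgcggcgc
Fabp7: gTTCCCAggccccgctgacttcctttagag
The Hes5 stretches are chr4:154960685-154960714 and chr4:154960829-154960858, and the matches lie at bases -226 to -221 and -82 to -77 from the start used. RefSeq's extent of Hes5 begins at 154960626, so both lie inside the annotated gene of another start. The Fabp7 stretch is chr10:57784673-57784702, with the match at -249 to -244. The HES binding forms CACNAG (N box, 36.7% of all windows) and CACGNG (class C site, 23.5%) were searched too. CACNAG stood in Fabp7 (1 match), Ptprz1 (2), Notch1 (1) and 1 window of Pax6 (1). CACGNG stood in Ptprz1 (1) and in both windows of Dll1 (1 each), and neither form stood in the Hes5 window. These are matches of letters in 1 window per start, and no binding was measured. Of all genes, 40.1% had the N box form and 26.1% the class C form in at least 1 window.

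Values are RMA signals on a log2 scale, so a difference of 1 is a 2-fold difference. No detection calls were used, so low levels may stand at background and folds against them are rough. Array medians ran from 7.17 to 7.37. NSC carried the neural markers Sox2 (mean level 12.01) and Nes (12.52), but Gfap, an astrocyte filament gene, was at 7.04 in NSC and between 6.75 and 7.14 in the other groups. The 4 pluripotency markers averaged 9.94 to 11.86 in the pluripotent groups and 5.51 to 6.27 in the somatic ones. The 66 control probe sets of NSC and HSC did not follow those of the other arrays. Pearson's r across control probe sets was 0.293 and 0.347, against 0.972 to 0.995 in the other 8 groups. The 12422 other probe sets did follow (0.922 and 0.885). Signs of RNA quality read from control rows therefore have no meaning in these 2 groups. Why their control rows differ is not known here. A difference in array or processing would fall on these whole groups. Its part in their differences from the other 8 groups cannot be told apart from that of cell type. In bulk RNA, more cells of a type and more RNA per cell cannot be told apart.

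**Figure D1:**
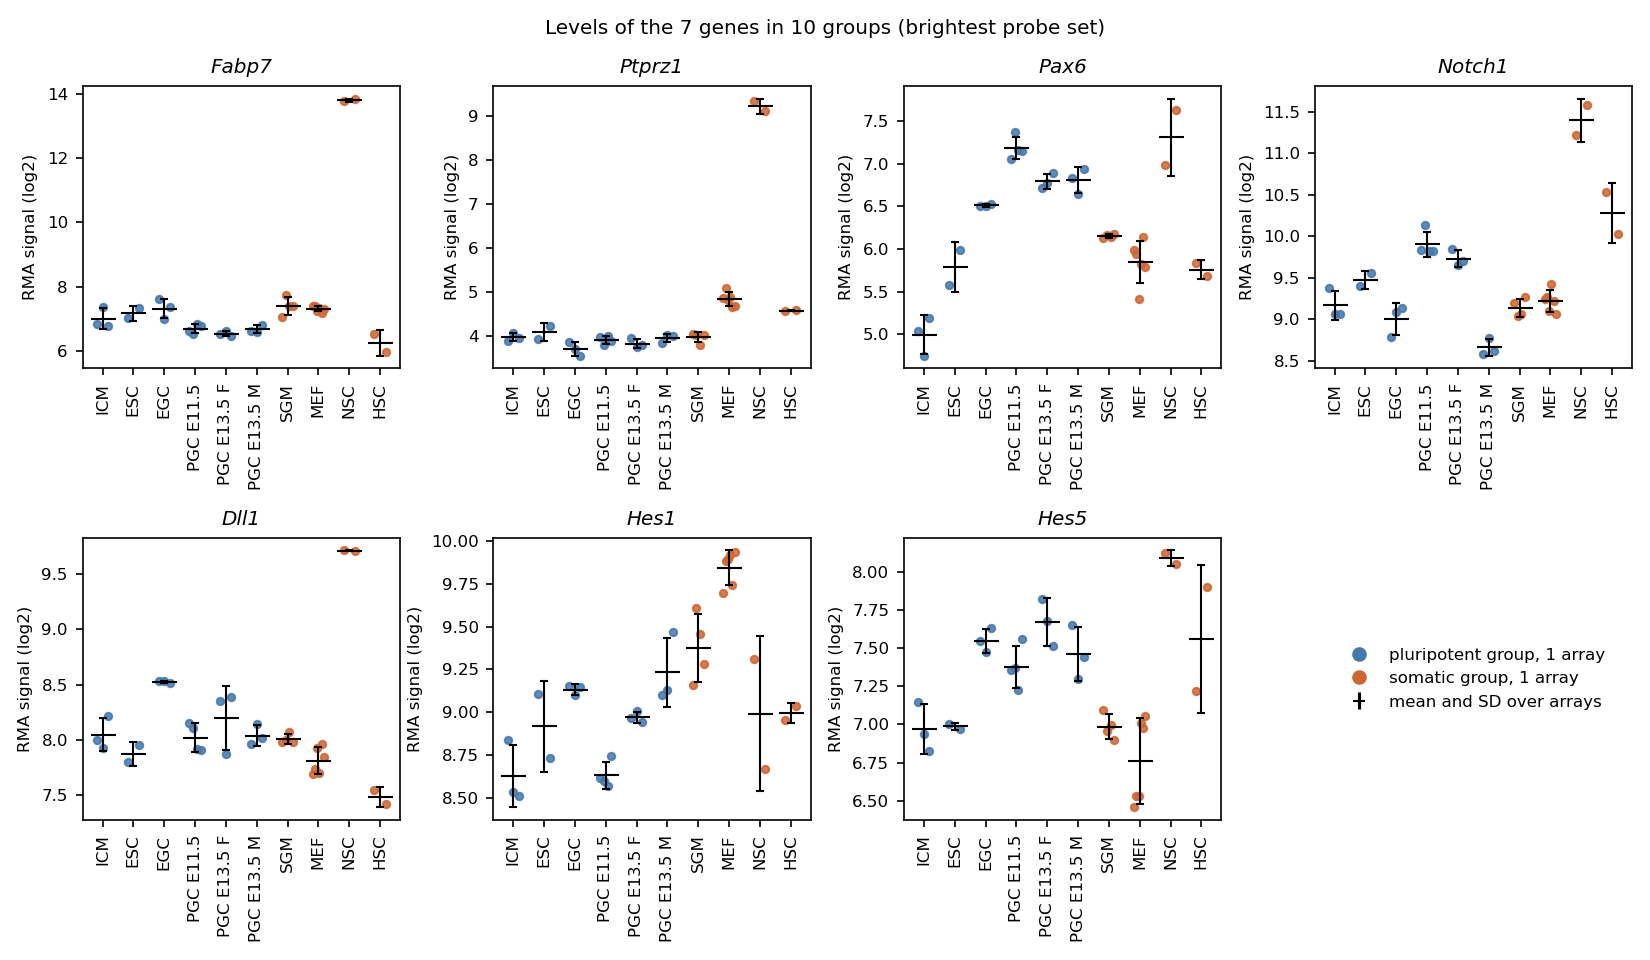
RMA signal (log2, vertical axis, a separate range in each panel) of each gene on every array, by group (horizontal axis), for the brightest probe set. Points are arrays, blue for pluripotent and orange for somatic groups, and bars are the mean and SD. NSC is the highest group for Fabp7, Ptprz1, Notch1, Dll1 and Hes5, shares the top with PGC E11.5 for Pax6, and lies in the middle for Hes1, where MEF is highest.

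Fabp7 (chr10:57784923-57788450, GRCm38.p6, probe set 98967_at) was high in NSC and low in every other group. The NSC arrays read 13.77 and 13.83. The next highest group was SGM, at 7.04, 7.74, 7.39 and 7.39, followed by EGC at 7.60, 6.99 and 7.35. All NSC arrays thus lay more than 6 log2 units above any array of those groups. MEF ran from 7.19 to 7.38 with a median of 7.32, ESC read 7.01 and 7.33, and ICM 6.84, 7.36 and 6.77. Germ cells were a little lower, at 6.63, 6.53, 6.83 and 6.77 at E11.5, 6.53, 6.61 and 6.45 in E13.5 females and 6.62, 6.60 and 6.81 in E13.5 males. HSC had the lowest mean, with 6.53 and 5.96. Below NSC no 2 neighbours in the order of means differed at an adjusted p under 0.05 (limma, Benjamini-Hochberg over all 8251 genes), although groups further apart did.

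Ptprz1 (chr6:22875315-23052916) had the same outline. Its probe set 92378_at read 9.34 and 9.10 in NSC. MEF came next, from 4.65 to 5.10 with a median of 4.84, then HSC at 4.58 and 4.58, and no array of the remaining 7 groups was above 4.23. NSC, MEF, HSC and the rest did not overlap, and each of the steps from NSC to MEF, from MEF to HSC and from HSC to ESC passed the test (adjusted p 5.30e-23, 0.0410 and 0.00306, limma). The order below ESC, from ICM down to EGC, had no neighbours that differed. The other probe sets also set NSC apart, 92379_f_at at 10.77 and 11.41 and 92380_r_at at 7.33 and 8.51, but not MEF, whose lead over SGM was seen with 92378_at alone.

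Pax6 (chr2:105668896-105698410, probe set 92271_at) did not belong to NSC alone. NSC read 6.99 and 7.63, and PGC E11.5 read 7.05, 7.37, 7.16 and 7.15, so the groups overlapped, with a difference of 0.12 ± 0.16 (SE, adjusted p = 0.538, limma). Germ cells at E13.5 were next, at 6.83, 6.64 and 6.94 in males and 6.72, 6.78 and 6.89 in females. EGC followed at 6.51, 6.50 and 6.53, and SGM at 6.13 to 6.18, above MEF (5.42 to 6.14, median 5.89). The lowest groups were ESC at 5.58 and 5.99, HSC at 5.83 and 5.68, and ICM at 5.04, 4.75 and 5.19, with every ICM array below every array of the other groups. Among neighbours, PGC E11.5 over PGC E13.5 male, EGC over SGM, SGM over MEF and HSC over ICM passed the test.

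Notch1 (chr2:26457902-26503822, probe set 97497_at), the receptor, was highest in NSC, at 11.21 and 11.58. HSC came next with 10.53 and 10.02, then PGC E11.5 with 9.83, 10.13, 9.83 and 9.82. Each step between these 3 groups passed the test (adjusted p 1.35e-06 from NSC to HSC and 0.0196 from HSC to PGC E11.5, limma). Female E13.5 germ cells read 9.84, 9.65 and 9.70, close to E11.5, and male E13.5 germ cells 8.59, 8.77 and 8.62, the lowest group of all. Between them stood ESC (9.40 and 9.55), MEF (9.06 to 9.43, median 9.23), ICM (9.38, 9.07 and 9.07), SGM (9.20, 9.04, 9.07 and 9.27) and EGC (8.79, 9.09 and 9.14), with no neighbours that differed until EGC over male PGC. The second probe set, 162204_r_at, was dimmer and flatter, and its group means spanned 0.62 log2 units, against 2.73 for 97497_at.

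Dll1 (chr17:15367354-15376932, probe set 92931_at), the ligand, read 9.71 and 9.71 in NSC. EGC was second, at 8.53, 8.53 and 8.51, and no NSC or EGC array overlapped with any other group. The next 6 groups lay close together, with PGC E13.5 female at 8.35, 7.87 and 8.39, ICM at 8.00, 7.92 and 8.21, PGC E13.5 male at 7.96, 8.15 and 8.01, PGC E11.5 at 8.15, 8.11, 7.91 and 7.91, SGM at 7.98 to 8.07 and ESC at 7.80 and 7.95. MEF ran from 7.69 to 7.97 with a median of 7.79, and HSC was lowest at 7.55 and 7.42, below MEF (adjusted p = 0.00987, limma). The dim second probe set 161634_r_at went the other way, with NSC at 4.25 and 4.23 among the lowest values.

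Hes1 (chr16:30065357-30067796, probe set 160887_at) spanned only 1.22 log2 units between group means, and NSC was not at the top. MEF was highest, from 9.70 to 9.93 with a median of 9.89, above all arrays of every other group. SGM followed at 9.16, 9.61, 9.46 and 9.28. The 2 NSC arrays differed from each other, at 9.31 and 8.67, and so reached from the level of SGM down to that of PGC E11.5 (8.57 to 8.74) and ICM (8.84, 8.53 and 8.51). Male E13.5 germ cells read 9.10, 9.13 and 9.47, EGC 9.15, 9.10 and 9.15, HSC 8.95 and 9.04, female E13.5 germ cells 8.97, 9.00 and 8.94, and ESC 9.11 and 8.73. Apart from MEF over SGM (adjusted p = 4.98e-04, limma) no neighbours in this order differed.

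Hes5 (chr4:154960626-154962372, probe set 161051_at) was highest in NSC, at 8.12 and 8.05, by a small margin. Female E13.5 germ cells read 7.82, 7.68 and 7.51, and one HSC array reached 7.90 while the other read 7.22. EGC (7.54, 7.47 and 7.63), male E13.5 germ cells (7.65, 7.29 and 7.44) and PGC E11.5 (7.35, 7.37, 7.22 and 7.56) lay just below. ESC (7.003 and 6.97), SGM (6.90 to 7.09), ICM (7.15, 6.94 and 6.83) and MEF (6.46 to 7.06, median 6.76) were lower. The NSC arrays overlapped with no other array, and NSC over female E13.5 germ cells passed the test (0.42 ± 0.18 SE, adjusted p = 0.0442, limma). With the second probe set, 162069_at, HSC was highest instead, at 6.75 and 6.75, and NSC read 6.25 and 6.39.

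**Figure D2:**
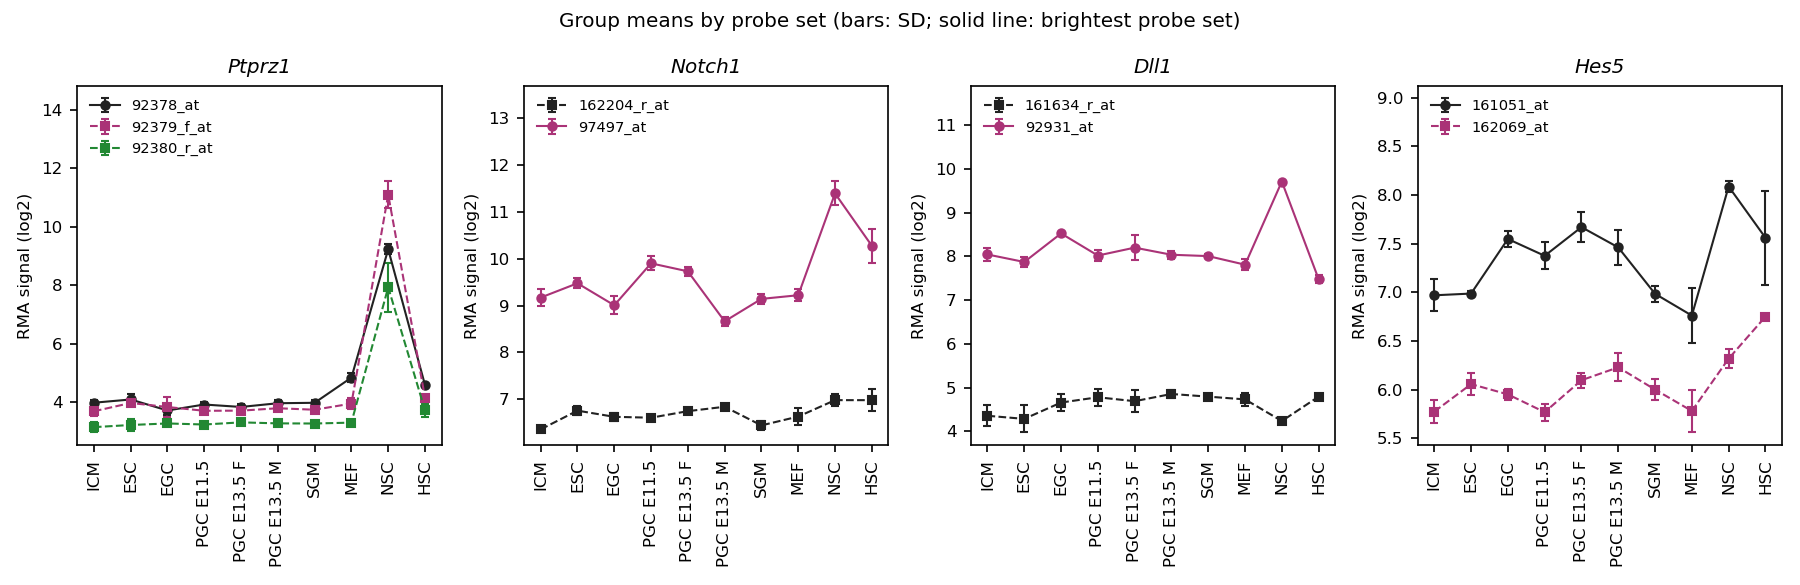
Group means (RMA signal, log2, vertical axis) of every probe set of the 4 genes with more than 1, by group (horizontal axis). Bars are SD over arrays, and the solid line is the brightest probe set. The 3 probe sets of Ptprz1 all peak in NSC, whereas the second probe sets of Dll1 and Hes5 do not show the NSC peak of the first, and that of Notch1 has NSC and HSC at a like level.

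The first question was how NSC stood against the other somatic cells, taken as the mean of the SGM, MEF and HSC means. Of the 7 genes, 6 were higher in NSC. Fabp7 was higher by 6.82 ± 0.16 (SE, 113-fold) and Ptprz1 by 4.76 ± 0.10 (27.1-fold). Of the Notch genes, the ligand Dll1 was higher by 1.95 ± 0.11 (3.85-fold), the receptor Notch1 by 1.85 ± 0.12 (3.60-fold) and the target Hes5 by 0.98 ± 0.15 (1.98-fold), and Pax6 was higher by 1.39 ± 0.15 (2.62-fold). For these 6 genes the NSC arrays lay above all 12 arrays of the other somatic groups, and over all genes such separation was not counted. Hes1, the other target, was lower by 0.41 ± 0.13 (adjusted p = 0.00697), with overlapping arrays.

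All 7 genes passed at an adjusted p under 0.05 in limma, where 58.9% of all genes did, 28.1% higher and 30.8% lower. The call for Hes1 was lost without the second NSC array (-0.09, adjusted p = 0.624) and with MEF left out of the comparison (-0.19, adjusted p = 0.270). Probe sets did not all give 1 answer. The other Ptprz1 probe sets gave 7.15 and 4.50, the second one of Notch1 gave 0.30 (adjusted p = 0.0124) and that of Hes5 0.14 (adjusted p = 0.274), and that of Dll1 was lower in NSC by a called -0.54.

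Set against each of the 9 other groups alone, the brightest probe sets of Fabp7, Ptprz1, Notch1, Dll1 and Hes5 were higher in NSC in 9 of 9 pairs. The second probe sets differed, with NSC the lowest mean for Dll1 (4.24) and below HSC for Hes5 (6.32 against 6.75). The share of all genes that passed in either direction was 34.9% against ESC, 51.8% against ICM, 53.7% against HSC and 55.6% against PGC E11.5. It was 58.4% against EGC, 58.8% and 63.4% against female and male PGC E13.5, 60.4% against SGM and 66% against MEF. The differences ran from 6.41 to 7.56 for Fabp7, from 4.39 to 5.51 for Ptprz1, from 1.12 to 2.73 for Notch1, from 1.19 to 2.23 for Dll1 and from 0.42 to 1.33 for Hes5. Pax6 was higher in NSC in 8 of 9 pairs, up to 2.31 against ICM, and PGC E11.5 was the exception. Hes1 was higher in NSC than in ICM and PGC E11.5, lower than in MEF and SGM, and did not pass in the other 5 pairs.

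**Figure D3:**
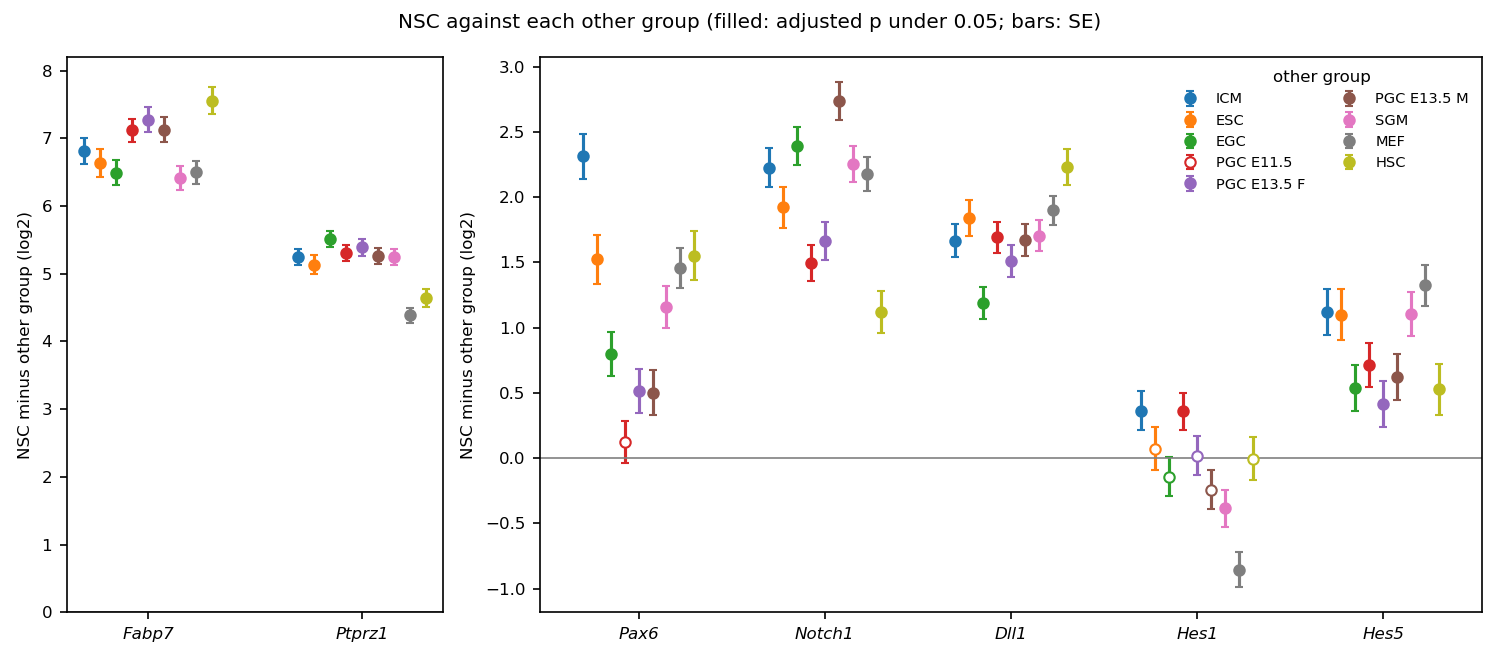
Difference of NSC from each other group (log2, vertical axis) for the brightest probe set of each gene (horizontal axis), with Fabp7 and Ptprz1 on an axis of their own. Bars are SE, filled points passed at an adjusted p under 0.05 in limma, and colours are the other groups. All points of Fabp7, Ptprz1, Notch1, Dll1 and Hes5 are filled and above 0, while those of Hes1 lie on both sides of it.

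Genes of wider Notch and neural lists, which hold the members too, moved in both directions in NSC. So did genes at large, with 28.1% of all genes higher and 30.8% lower. Of 62 genes of the Notch pathway, 36 were measured, and 14 were higher and 10 lower in NSC than in the other somatic groups. Notch1, Dll1 and Hes5 are among the 14 and Hes1 is among the 10. The median difference was 0.06 beside -0.03 over all genes. Among the receptors, Notch1 rose and Notch2 fell by 1.58 ± 0.20 (SE). Notch2 had a mean level of 7.53 in NSC, 9.71 in SGM, 9.96 in MEF and 7.66 in HSC, so HSC stood with NSC. Among ligands, Dll1 rose, and Jag2, a ligand, and Dlk1, a Notch-like membrane protein, fell by 1.07 ± 0.14 and 1.82 ± 0.11. The Jag2 level was 6.25 in NSC, 6.57 in SGM, 6.37 in MEF and 9.01 in HSC, with HSC the one group well above NSC. The corepressor gene Tle3 was lower by 0.87 ± 0.13. Of the 6 measured targets of the HES and HEY families, 3 rose, Hes5 among them, and 1, Hes1, fell.

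Of 33 genes of the neural stem list, 25 were measured, and 13 were higher and 3 lower, with a median of 0.31. The shares over all genes, 28.1% higher and 30.8% lower, stand beside this and the lists that follow. Fabp7, Ptprz1 and Pax6 are among the 13. Members of the list with the largest differences, beside Fabp7 and Ptprz1, were Sox2, a transcription factor of stem cells, at 7.45 ± 0.14 (SE), and Nes, the filament protein nestin, at 3.01 ± 0.16. Sox2, which also belongs to the core network of pluripotent cells, had mean levels of 10.14 to 11.82 in the pluripotent groups and 4.39 to 4.65 in SGM, MEF and HSC. Genes of more mature neural cells were also measured. Of 9 astrocyte genes 5 were higher and 1 lower, with Apoe at 3.75 ± 0.23 and Aldoc at 3.56 ± 0.13, and the mean level of the list ran from 8.72 to 8.82 on the NSC arrays and from 7.14 to 8.38 elsewhere. Of 18 neuron genes 6 were higher and 6 lower, with Gad1, which makes the transmitter GABA, higher by 4.09 ± 0.13 and Stmn2, a microtubule protein, lower by 3.63 ± 0.13. Of 7 oligodendrocyte lineage genes 3 were lower and the other 4 did not pass, with the list at 7.05 to 7.39 on the NSC arrays. The part of cells beyond the stem state in the members' levels was not tested.

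Pluripotent cells were then set against somatic cells as the mean of 6 group means minus the mean of 4. Of the 7 genes, 5 passed, all lower in pluripotent cells, where 63.9% of all genes passed, 29.1% higher and 34.9% lower. Fabp7 was lower by 1.79 on the log2 scale (-1.79 ± 0.08 SE), and Ptprz1 (-1.74 ± 0.05), Notch1 (-0.68 ± 0.06), Hes1 (-0.38 ± 0.06) and Dll1 (-0.14 ± 0.05) followed. Pax6 (0.08 ± 0.07) and Hes5 (-0.01 ± 0.07) did not pass. The Dll1 call was lost with median centring (-0.11), quantile normalization (-0.09, adjusted p = 0.139, limma), array weights, the mean of both probe sets, and without the first ESC or the first HSC array (-0.12 each). The second probe sets of Notch1 (-0.10) and Dll1 (-0.03) did not pass, and that of Hes5 was lower (-0.23, adjusted p = 4.52e-04). Arrays of the sides overlapped for all 7 genes, with NSC and without it.

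Without NSC the call or the direction changed for 4 genes, and the differences of Ptprz1 (-0.55) and Notch1 (-0.22) were smaller in size but still passed. The Fabp7 difference was -0.09 (adjusted p = 0.373, limma), Dll1 turned to 0.35 (adjusted p = 3.33e-06) and Hes5 to 0.23 (adjusted p = 0.0117), and Pax6 was now higher in pluripotent cells by 0.43. With HSC left out too, an alternative chosen after seeing the data, Notch1 also turned, to 0.14 (adjusted p = 0.0267), while Fabp7 was again lower, by a called -0.45, and Pax6 was at 0.35. Of the Notch list 6 were higher and 17 lower in pluripotent cells (median -0.10), and of the neural stem list 3 and 16 (median -0.32). The same NSC arrays were among the somatic side, and 29.1% of all genes were higher and 34.9% lower. Beside the members, the largest over all Notch and neural lists were Sox2 (4.85 ± 0.07) and the neuron gene Stmn2 (1.53 ± 0.07) among higher ones. Among lower ones they were Nfib, a transcription factor of glia, (-1.91 ± 0.12) and the protease gene Adam10 (-1.36 ± 0.12).

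Germ cells of E11.5 were compared with the reporter-negative cells of the same tissue, SGM. Pax6, Notch1 and Hes5 were higher in germ cells, and Fabp7 and Hes1 were lower. Pax6 differed by 1.03 ± 0.13 (SE, 2.05-fold), Notch1 by 0.76 ± 0.11 (1.69-fold) and Hes5 by 0.39 ± 0.14 (1.31-fold). Fabp7 differed by -0.70 ± 0.14 and Hes1 by -0.74 ± 0.12. For all 5 genes the arrays of the groups did not overlap, and the share of all genes with no overlap was not counted. Ptprz1 (-0.06 ± 0.10) and Dll1 (0.01 ± 0.10) did not pass. Of all genes 50.2% passed in this comparison, 23.2% higher and 26.9% lower in germ cells. The second Notch1 probe set did not pass (0.16, adjusted p = 0.148, limma). The Hes5 call was lost without the fourth PGC E11.5 array (0.33, adjusted p = 0.0629, limma), and the second Hes5 probe set read -0.23 (adjusted p = 0.0591).

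The other Notch target, Hes5, was thus on the side opposite to Hes1 with its first probe set only, and with the mean of both its difference did not pass (0.08, adjusted p = 0.498). Of the 36 Notch genes 8 were higher and 11 lower in germ cells (median -0.03, beside -0.04 over all genes). Over all genes 23.2% were higher and 26.9% lower. Fbxw7, a ubiquitin ligase subunit that degrades the Notch fragment, was higher by 2.90 ± 0.30. All 6 fibroblast markers were lower in germ cells, with a mean level of 7.78 to 8.24 on the PGC E11.5 arrays and 11.47 to 12.002 on those of SGM, and all 3 erythroid markers were lower too, at 6.81 to 8.52 against 11.34 to 11.83. Their part in the members' differences was not tested.

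From E11.5 to E13.5, the mean of both sexes showed lower Pax6 and Notch1 and higher Hes1. Pax6 fell by 0.39 ± 0.12 on the log2 scale (-0.39, adjusted p = 0.0105, limma), Notch1 fell by 0.71 ± 0.10 and Hes1 rose by 0.47 ± 0.11. The Hes1 and Pax6 arrays of the 2 stages did not overlap, and those of Notch1 did, because one female array reached the E11.5 range. The share of all genes with no overlap was not counted. Notch1 means were 9.90 at E11.5, 9.73 in E13.5 females and 8.66 in E13.5 males, so the male arrays mostly set the lower E13.5 mean. The E11.5 arrays are of mixed sex, so a fall within males was not measured. E11.5 over females did not pass (0.17 ± 0.12, adjusted p = 0.300, limma). The second Notch1 probe set had a difference of the other sign that did not pass (0.19, adjusted p = 0.0646). Hes5 did not pass with its first probe set (0.19 ± 0.12) and was higher at E13.5 with the second (0.39, adjusted p = 0.00105). Of all genes 50.8% passed, 30.9% higher and 19.9% lower at E13.5, and the median over all genes was 0.12. Without the second PGC E11.5 array, which had the highest Pax6 and Notch1 of its group, Pax6 was at -0.32 (adjusted p = 0.0532). The target gene Hey1 was among the lower ones, at -1.57 ± 0.10, from a mean level of 9.90 at E11.5 to 8.17 in females and 8.48 in males. Fbxw7 was lower by 2.18 ± 0.28 (-2.18). In all 17 Notch genes were higher, among them Dtx2, a regulator of the pathway, by 0.87 ± 0.14, and 7 were lower. Of 6 fibroblast markers 3 were higher at E13.5, with the list at 8.12 to 8.66 against 7.78 to 8.24. The erythroid list averaged 7.58 at E11.5, 8.23 in E13.5 females and 8.61 in E13.5 males. In the same order, the 3′ minus 5′ signal was 0.95, 1.00 and 0.39 for actin and 3.48, 3.81 and 3.57 for Gapdh. The part of these in the members' differences was not tested.

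Male and female germ cells of E13.5 differed in Notch1 alone among the 7 genes. Females were higher by 1.07 ± 0.13 (SE, 2.10-fold, adjusted p = 2.97e-06, limma), with 9.84, 9.65 and 9.70 against 8.59, 8.77 and 8.62. Of all genes 8.62% passed in this comparison, 6.29% higher and 2.33% lower in females. The E11.5 arrays are of mixed sex, so changes from that stage cannot be compared between the sexes, and Notch1 at E11.5 was above that of E13.5 females by a difference that did not pass (0.17 ± 0.12, adjusted p = 0.300). The second Notch1 probe set did not show it (-0.09, adjusted p = 0.629). The call held without each of the 6 arrays in turn, at 1.01 to 1.12.

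The remaining members had differences of 0.26 or less in size between the sexes. Dll1 did not pass (0.16 ± 0.11), but it did without the second female array (0.33, adjusted p = 0.0450, limma). That array read 7.87, against 8.35 and 8.39 in the other females. Hes1 did not pass at -0.26 ± 0.13 (adjusted p = 0.248, limma), although every male array lay above every female one. The share of all genes separated in this way was not counted. Of the other Notch genes, Dtx2 was higher in females by 0.75 ± 0.18 and Hes3 lower by 0.27 ± 0.09 (-0.27). With Notch1 counted, 4 of 36 were higher and 1 lower. Prom1, which encodes the surface protein prominin, was higher in females by 1.05 ± 0.23, and Gja1, a gap junction gene, was lower (-1.08 ± 0.26). The actin control probe sets differed in their 3′ minus 5′ signal, 1.00 in females and 0.39 in males, and those of Gapdh stood at 3.81 and 3.57. Of 6 fibroblast markers 1 was lower in females, with the list at 8.12 to 8.41 in females and 8.40 to 8.66 in males. The part of either in the Notch1 difference was not tested.

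**Figure D4:**
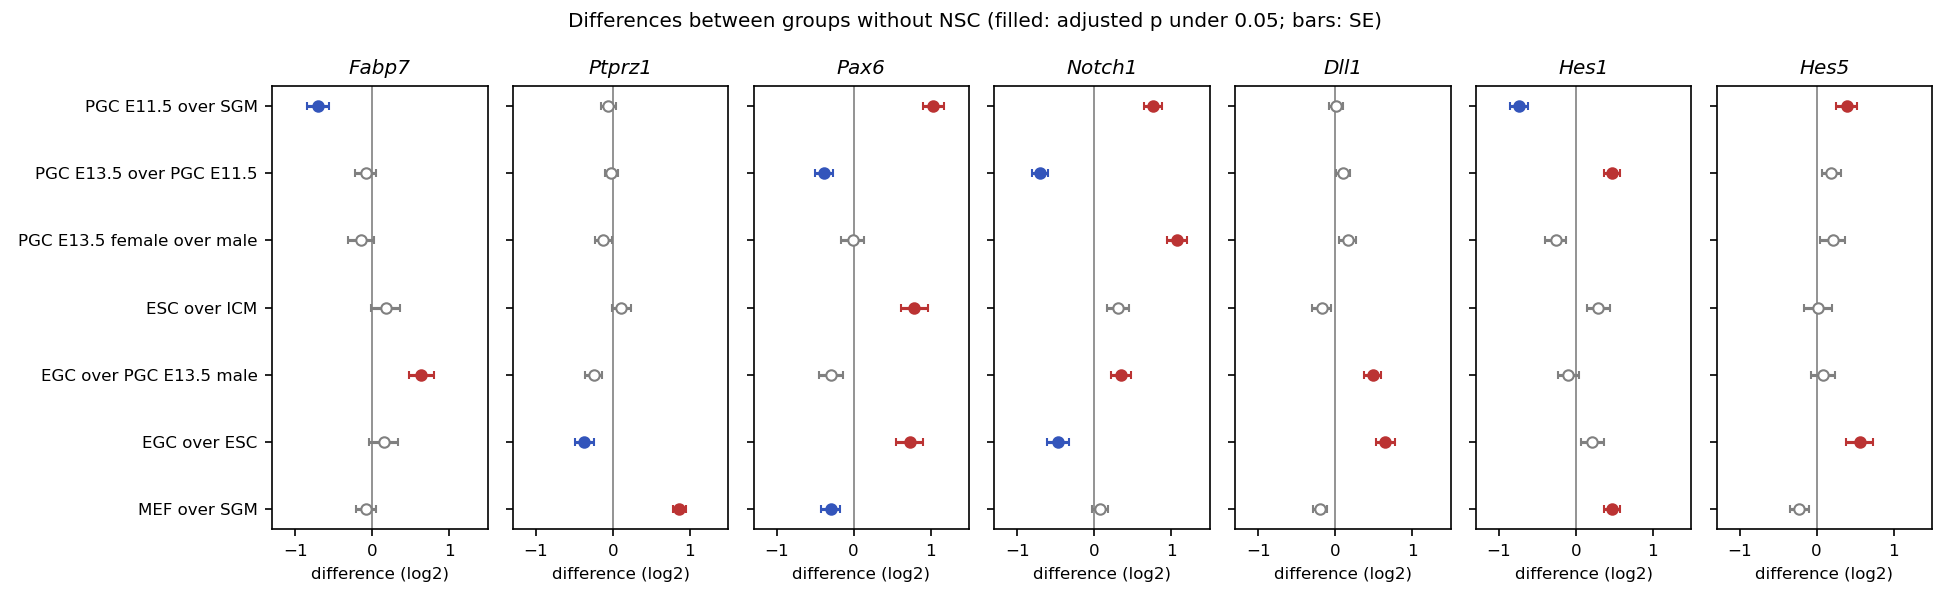
Differences (log2, horizontal axis) of each gene in 7 comparisons of groups other than NSC (vertical axis). Bars are SE, and filled points passed at an adjusted p under 0.05 in limma, red where the first-named group is higher and blue where it is lower. Notch1 is the gene with a filled point in the comparison of the sexes, and Hes1 and Notch1 have filled points on opposite sides in the 2 rows of E11.5 germ cells.

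The cultured lines were compared with their sources and with each other. ESC differed from ICM in Pax6 alone, which was higher by 0.79 ± 0.17 (SE, 1.73-fold, adjusted p = 1.00e-03, limma), with 5.58 and 5.99 against 5.04, 4.75 and 5.19. Of all genes 27.8% passed, 15.3% higher and 12.6% lower in ESC. The call was lost when only ICM and ESC were fitted (adjusted p = 0.0507) and without the second ESC array (0.58, adjusted p = 0.0564). Trophectoderm markers moved with this comparison, with 2 of 3 lower in ESC and the list at 6.70 and 6.96 on the ESC arrays and from 7.32 to 9.39 on those of ICM, which also differ from ESC in strain. Their part in the Pax6 difference was not tested. The second Notch1 probe set was higher in ESC (0.40, adjusted p = 0.0114), where the first did not pass (0.31 ± 0.15). Of the Notch list 8 of 36 genes were higher and 1 lower.

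EGC, set against male germ cells of E13.5, showed higher Fabp7 (0.64 ± 0.17 SE), Dll1 (0.49 ± 0.11) and Notch1 (0.34 ± 0.13, adjusted p = 0.0475, limma). Of all genes 30.7% passed, 14.8% higher and 15.9% lower in EGC. In these 3 members no arrays of the groups overlapped, and the share of all genes with no overlap was not counted. The Notch1 call was lost without any 1 of 4 of the 6 arrays, at 0.28 to 0.32, with quantile normalization, with a mean-variance trend, with the replicate number as a block (adjusted p = 0.0632) and with the mean of both probe sets (0.06). The Dll1 call was lost with the mean of both probe sets too (0.15, adjusted p = 0.212). The 3′ minus 5′ signal of actin was 1.86 in EGC and 0.39 in male PGC. That of Gapdh went the other way, with 3.16 in EGC and 3.57 in male PGC, and the part of either was not tested. EGC came from E12.5 cells, a stage for which no array was analysed here.

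Between the lines, EGC was higher than ESC in Dll1 (0.65 ± 0.12 SE), Pax6 (0.73 ± 0.17) and Hes5 (0.56 ± 0.18) and lower in Ptprz1 (-0.38 ± 0.12) and Notch1 (-0.47 ± 0.15), where 39.4% of all genes passed, 20.8% higher and 18.6% lower in EGC. Arrays of the lines, 3 of EGC and 2 of ESC, did not overlap in these 5 genes, and the share of all genes with no overlap was not counted. The count fell to 3 without the first ESC array and to 2 without the second, Dll1 being called in both cases. The Notch1 call was also lost without the first EGC array (-0.36, adjusted p = 0.0727, limma) and that of Ptprz1 without the third (-0.30, adjusted p = 0.0775). With the mean of all probe sets Ptprz1 (-0.15) and Hes5 (0.23) did not pass, and the dimmer probe sets stood at -0.14 and 0.05 (Ptprz1), -0.13 (Notch1), 0.37 (Dll1, adjusted p = 0.0617) and -0.11 (Hes5), which did not pass. Of the marker lists, 3 of 6 fibroblast genes were higher in EGC, at 8.53 to 8.68 against 8.06 to 8.31, and all 4 germ cell genes were lower, at 7.03 to 7.13 against 8.53 to 8.61, and their part was not tested. All 3 measured ligands of the Notch list were higher in EGC, and among the receptors Notch2 was higher by 1.46 ± 0.24.

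Whether the step from source to line differed between the germ line and the blastocyst was tested as an interaction, in which 32.5% of all genes passed, 14.2% higher and 18.3% lower. Pax6 (-1.08 ± 0.23 SE, adjusted p = 7.15e-04, limma) and Dll1 (0.66 ± 0.17, adjusted p = 0.00352) did. Pax6 was higher in ESC than in ICM, and in EGC lower than in male PGC by a difference that did not pass by itself (-0.29 ± 0.15). Dll1 was higher in EGC than in male PGC, whereas in ESC over ICM it did not pass (-0.17 ± 0.12). The Dll1 result was lost with the mean of both probe sets (0.27, adjusted p = 0.119). The second probe sets of Notch1 (-0.62, adjusted p = 0.00396) and Hes5 (-0.56, adjusted p = 0.0149) passed in the interaction, where the first ones did not (0.04 and 0.07).

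Cultured fibroblasts differed from fresh soma in 3 genes, where 49.8% of all genes passed, 22.2% higher and 27.6% lower in MEF. Ptprz1 was higher in MEF by 0.86 ± 0.09 (SE) and Hes1 by 0.47 ± 0.11, in both cases with no overlap of arrays. Levels of Ptprz1 were low here, from 3.81 to 5.10, and its other probe sets did not pass (0.21 and 0.03, adjusted p 0.144 and 0.882, limma). Dll1 arrays did not overlap either, but its difference did not pass (-0.20 ± 0.09, adjusted p = 0.0653). Some alternatives did call Dll1 lower in MEF, array weights among them (-0.24, adjusted p = 0.0113). Such separation was not counted over all genes. Pax6 was lower by 0.30 ± 0.12 (-0.30, adjusted p = 0.0418, limma), a call that was lost without any 1 of 7 of the 10 arrays and when arrays were centred on their median or quantile normalized. Of the neural stem list, Ptprz1 and Pax6 included, 10 of 25 genes were higher in MEF and 2 lower. The matrix gene Tnc (4.39 ± 0.12) and the transcription factor gene Nfix (3.78 ± 0.11) were in the lead. Of the 6 fibroblast markers 5 were higher in MEF, at 12.74 to 13.16 against 11.47 to 12.002 in SGM. All 3 erythroid markers were lower in MEF, at 6.32 to 6.56 against 11.34 to 11.83. Lower too were 3 of 5 endothelial markers, at 6.53 to 6.76 against 7.31 to 7.48, and 3 of 5 markers of gonad soma, at 7.29 to 7.52 against 8.53 to 8.67. The part of these lists in the members' differences was not tested.

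Over the 10 group means, the members did not follow a single pattern. Pearson's r was 0.96 between Fabp7 and Ptprz1, 0.91 between Fabp7 and Dll1 and 0.82 between Ptprz1 and Notch1, but without NSC it was -0.07, 0.40 and 0.29. Hes1 had r between -0.33 and 0.04 with the other 6 genes, and without NSC between -0.39 (Notch1) and 0.55 (Ptprz1). Pax6 and Hes5 had r of 0.71 with NSC and 0.60 without. These describe 10 means that share the same arrays and no p is given.

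Genes of most similar pattern were sought by Pearson's r over the 10 group means among 5008 genes whose means ranged over at least 1 log2 unit. Fabp7 was matched best by Gatm (r = 0.99), Ndp (0.99) and Nrcam (0.98), and Ptprz1 by Pou3f4 (0.99), Adam12 (0.98) and Tlcd4 (0.98). Without NSC these values were 0.66, 0.67, 0.32, 0.93, 0.63 and 0.36, lower for each of the 6 genes and least so for Pou3f4. Dll1 was matched by Rtn1 (0.96), Agpat5 (0.96) and Rlbp1 (0.95), with 0.86, 0.79 and 0.75 when NSC was left out, and Notch1 by Cdc42se2 (0.92), Phtf1 (0.91) and Tmem229b (0.91). The targets had other matches, Slc1a6 (0.95), Arhgef25 (0.94) and Aebp1 (0.94) for Hes1 and Mast2 (0.91), Tnfrsf21 (0.90) and Traf4 (0.88) for Hes5. Tnfrsf21 (0.86) was also among the matches of Pax6, with Pcx (0.86) and Cetn2 (0.84).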

How the data were processed

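RNA from RNeasy columns, treated with DNase per the labels' protocols, was hybridised to Affymetrix arrays. The deposited table holds log2 values, made by the authors with RMA, per the submitters' processing notes, which give no version. It has 34 columns and 12488 probe sets. ESC replicate 3 and PGC E11.5 replicate 5 equal the mean of the other columns of their group within 1e-06 and were left out, which leaves 32 arrays. Values of 13 probe sets exceed 16, above what a scanner of 16 bits records, and whether the authors rescaled the values is not given in the sources used here. Depth does not apply to arrays, whose number limits the precision.

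Of the probe sets, 10833 have 1 gene symbol in the platform annotation, 396 several and 1193 none, and 10817 symbols were matched by gene ID to RefSeq GRCm38.p6. Group means of 8251 genes were fitted with limma 3.58.1 (lmFit, eBayes, R 4.3.3), all groups sharing 1 spread. Called means an adjusted p under 0.05 (Benjamini-Hochberg, two-sided), and the script was tested on simulated data. Errors of differences are SE. Overlap of arrays was not counted over all genes, so it describes the members and is no measure of how unusual they are. Replicates are biological per the labels, which do not say what makes them separate.

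The members and the gene lists were chosen with earlier results of these data known. Named genes are the members, the 3 of most similar pattern per member, Gfap, and called list genes with the largest differences. The rule for list genes took 5 in each direction in NSC over other somatic groups and 2 in each direction elsewhere. All of the former are named, but only some of the latter. Alternatives changed the probe set rule, low-value filter, scaling, model, arrays and groups. Motif matches were counted in RefSeq windows of 250 bases, and no window of Hes1 was used here.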

Additional observations from a re-analysis of the deposited data

Results flagged for a closer look

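In 36 groups of 4 to 6 arrays, 1 for each member probe set in PGC E11.5, SGM and MEF, 3 arrays lay further from the rest than Dixon's 95% value allows, and chance marks about 1 in 20 groups. The Ptprz1 probe set 92378_at read 3.81 in SGM replicate 3, where the others read 4.02 to 4.04. The Notch1 probe set 162204_r_at read 6.30 in SGM replicate 4, against 6.47 to 6.50. The Notch1 probe set 97497_at read 10.13 in PGC E11.5 replicate 2, against 9.82 to 9.83.

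A difference between contrasts was tested for Pax6 and Dll1, where the step from source to line in the germ line minus that in the blastocyst was -1.08 and 0.66.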

How the results depend on the processing

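Of 70 differences of the members, 35 were called, and 20 of these kept direction and call under every alternative run for them; of the 35 not called, 26 stayed so. With the mean of all probe sets the number of members called was 2 in ESC over ICM, 1 in EGC over PGC E13.5 male, 3 in EGC over ESC and 1 in the interaction. The filter on low values, which leaves out Pax6 alone of the members, gave 0 in ESC over ICM and 1 in the interaction, and fitting only ICM and ESC gave 0. The replicate number as a block gave 5 in MEF over SGM; it ended the Notch1 call of EGC over PGC E13.5 male (0.34, adjusted p = 0.0632, limma) and changed no other member's call outside MEF over SGM. Numbers were not taken as pairs, since like-numbered residuals correlated from -0.566 to 0.521.

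Leaving out 1 array gave 6 to 7 calls in NSC over other somatic, 4 to 5 in pluripotent over somatic and in PGC E11.5 over SGM, 2 to 3 in PGC E13.5 over E11.5, 1 to 2 in female over male, 0 to 2 in ESC over ICM, 2 to 4 in EGC over PGC E13.5 male and in MEF over SGM, and 2 to 5 in EGC over ESC. Signs turned in pluripotent over somatic, to 0.35 (Dll1) and 0.23 (Hes5) without NSC, and to 0.14 (Notch1), 0.21 (Dll1) and 0.46 (Hes5) without NSC and HSC. The causes of the changes were not tested.

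Over all genes, 711 were called in female over male, and 1243 with array weights, 389 without female replicate 3 and 414 without male replicate 3. In ESC over ICM 2296 were called, and 776 with only these groups, 1360 and 1476 without ESC replicates 1 and 2; in EGC over ESC 3254, and 2147 without ESC replicate 2. Arrays centred on their median gave 56.2% of calls higher in MEF over SGM (44.5% as deposited), 49.9% in PGC E13.5 over E11.5 (60.8%) and 55.8% in the interaction (43.6%), and quantile normalization 58.8% in female over male (73.0%). With 2 arrays each, NSC, ESC and HSC limit every comparison that uses them.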
